A study of Homo sapiens with 7 samples.

Results

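The genes described here encode 9 transcription factors that guide blood precursors towards the granulocyte, monocyte or erythroid fate, GFI1, GFI1B, IRF8, IRF4, KLF4, EGR1, EGR2, NFE2 and ZEB2. They were chosen by name from 20163 protein-coding genes of a GRCh37 annotation, by a rule that uses no measured value, with earlier results of these data known. GFI1 was placed in a granulocyte group of 1, IRF8, IRF4, KLF4, EGR1, EGR2 and ZEB2 in a monocyte, macrophage and dendritic group of 6, and GFI1B and NFE2 in an erythroid and megakaryocytic group of 2. These groups follow textbook roles, and several of the factors also act outside the lineage they are listed under.

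ChIP-seq was performed in unperturbed Kasumi-1 cells with antibodies against AML1, ETO, N-CoR, p300 and H3K4me3. Kasumi-1 is an established myeloblast line from peripheral blood that carries the t(8;21) translocation and makes the AML1-ETO fusion protein, so every library shares that genotype and there is no arm without the fusion. Wild-type AML1 was told apart from the fusion by an antibody to its C-terminal end, which the fusion lacks, and AML1-ETO was captured with the ETO antibody. The lists held 19632 peaks for H3K4me3, 18087 for AML1-ETO, 11692 for AML1, 11020 for p300 and 10004 for N-CoR, each called on 2 pooled biological replicates, so no spread between replicates was measurable and no test was made between lists.

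AML1 (RUNX1) is a DNA-binding regulator of blood development that can recruit the histone acetyltransferase p300. AML1-ETO keeps the DNA-binding Runt domain of AML1 and gains the ETO part, through which it binds the co-repressor N-CoR. H3K4me3 is a histone mark of transcription start sites, and cells of t(8;21) leukemia are held at an immature myeloid stage. In normal blood formation GFI1 and IRF8 favour opposite outcomes of a shared precursor, granulocytes and monocytes, while GFI1B, the close relative of GFI1, acts in erythroid cells and megakaryocytes.

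Windows of 100 bp around AML1-ETO summits at 5 of the genes are shown because the results below turn on them. They are GRCh37 (hg19) reference sequence of the + strand, and capitals mark TGTGGT or TGCGGT (Runx), AGGAAG (ETS) and GAGGAA (PU.1), read on either strand. AGGAAG and GAGGAA can overlap each other. At the first 5 windows, AML1, N-CoR and p300 windows overlapped that of AML1-ETO.
GFI1 near the start, chr1:92951667-92951766: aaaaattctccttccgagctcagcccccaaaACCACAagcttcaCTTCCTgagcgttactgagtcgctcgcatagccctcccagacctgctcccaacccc
GFI1 distal intron, chr1:92941998-92942097: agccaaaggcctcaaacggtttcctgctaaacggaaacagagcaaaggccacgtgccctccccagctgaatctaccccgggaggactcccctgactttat
ZEB2 distal intron, chr2:145140599-145140698: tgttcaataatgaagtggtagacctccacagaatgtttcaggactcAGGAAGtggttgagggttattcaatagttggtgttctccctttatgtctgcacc
IRF8 past the gene, chr16:85962226-85962325: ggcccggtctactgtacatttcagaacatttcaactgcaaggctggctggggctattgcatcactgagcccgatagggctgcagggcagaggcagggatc
NFE2 upstream, chr12:54698210-54698309: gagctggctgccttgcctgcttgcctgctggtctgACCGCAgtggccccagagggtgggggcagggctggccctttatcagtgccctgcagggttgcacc
ZEB2 nearer intron, chr2:145230654-145230753: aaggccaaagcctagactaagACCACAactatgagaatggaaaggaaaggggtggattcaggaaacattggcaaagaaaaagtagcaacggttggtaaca
IRF8 edge of the 5 kb limit, chr16:85961111-85961210: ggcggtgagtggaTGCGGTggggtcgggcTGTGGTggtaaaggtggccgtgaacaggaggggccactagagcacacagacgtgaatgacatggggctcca
EGR2 start, chr10:64576583-64576682: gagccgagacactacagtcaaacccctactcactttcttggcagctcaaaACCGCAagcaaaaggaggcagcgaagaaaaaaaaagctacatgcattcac

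Binding at these genes ranged from 14 summits of the 4 proteins at GFI1 to none at IRF4 and KLF4. A summit was assigned to a gene when it lay within the gene body or 5 kb of it, and within 50 kb for a wider view. AML1-ETO summits were found at GFI1, IRF8, EGR2, ZEB2 and NFE2, which are 5 of 9 genes, and 41.3% of all protein-coding genes had one. AML1 was present at 6 genes (34.9% of all genes), N-CoR at 3 (26.7%), p300 at 5 (45.5%) and H3K4me3 at 5 (68.0%). The 3 genes with N-CoR were GFI1, ZEB2 and NFE2. IRF4 and KLF4 had no summit of any list (25.8% of all genes), and GFI1, IRF8, ZEB2 and NFE2 had at least 2 of AML1-ETO (18.0%). The set is small, and the shares are given as a description.

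Within 50 kb, AML1-ETO was again found at 5 of the 9 genes (66.5% of all genes) and AML1 at 6 (59.8%). N-CoR was found at 4 (48.7%), p300 at 7 (64.4%) and H3K4me3 at 6 (80.9%). The genes added by the wider limit were IRF8 for N-CoR, IRF8 and EGR2 for p300, and NFE2 for H3K4me3, and where those summits lay is given with each gene.

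Corrected for the length of the loci, the genes held 3.18 AML1-ETO summits per 100 kb, against 0.584 over the nuclear genome. The corresponding values were 2.12 and 0.377 for AML1, 2.12 and 0.323 for N-CoR, 2.39 and 0.356 for p300, and 2.12 and 0.634 for H3K4me3. The nuclear genome includes gene-poor sequence and the loci do not, so the pairs of densities are given as a description. Among the genes the density of AML1-ETO summits was 16.7 per 100 kb at GFI1, 10.6 at NFE2, 8.96 at IRF8, 5.82 at EGR2 and 1.20 at ZEB2, which is by far the longest of them.

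**Figure D1:**
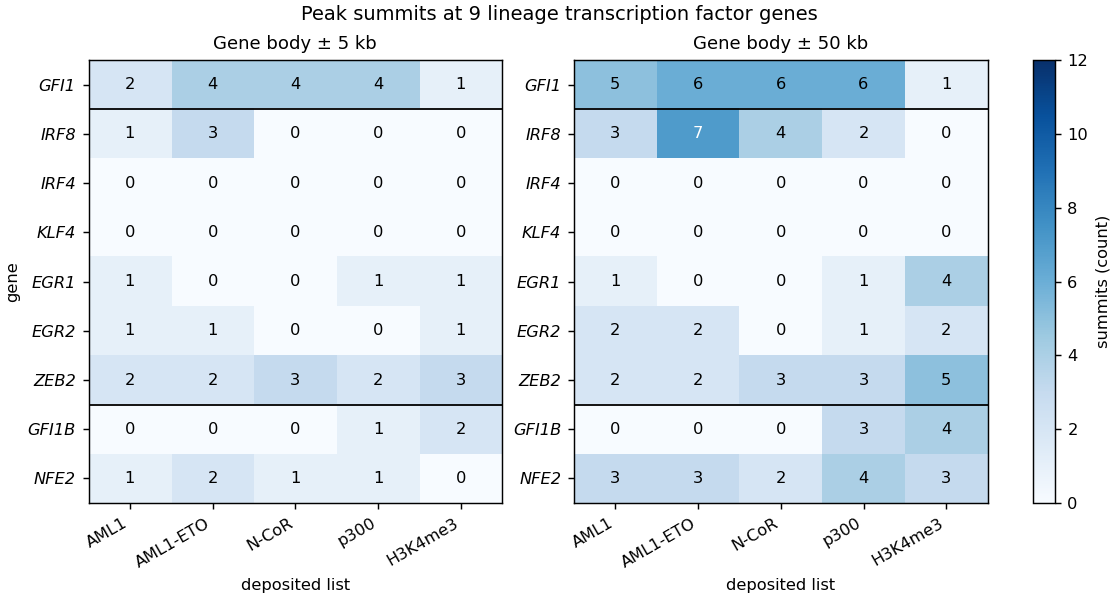
Number of peak summits (cell values and colour) at each of the 9 genes (rows) in each of the 5 lists (columns), within 5 kb of the gene body on the left and within 50 kb on the right, with lines between the granulocyte, monocyte and erythroid groups. GFI1 holds 4 summits each of AML1-ETO, N-CoR and p300 within 5 kb, IRF8 holds 3 of AML1-ETO with none of N-CoR or p300, and IRF4 and KLF4 are empty in both views.

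GFI1, a zinc finger repressor needed for neutrophil development, held the most binding. The gene lies at chr1:92938600-92952482 on the - strand, and within 5 kb it had 4 AML1-ETO, 4 N-CoR, 4 p300, 2 AML1 and 1 H3K4me3 summits. At least 4 AML1-ETO summits were found at 4.79% of protein-coding genes, at least 4 N-CoR summits at 1.87% and at least 4 p300 summits at 1.44%. Each AML1-ETO summit of GFI1 was paired with N-CoR.

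The 4 AML1-ETO summits of GFI1 differed in their partners. At the intronic site near the start (chr1:92951639-92951779), summits of all 4 proteins lay within 41 bp, and the AML1-ETO summit was 765 bp downstream of the start of the MANE Select transcript, the reference transcript of the gene. An alternative start lay 63 bp from it, and the only H3K4me3 summit of the gene was 346 bp away. Its AML1-ETO window, printed first above, contained 1 Runx and 1 ETS match. At the promoter (chr1:92952492-92952617), AML1-ETO, N-CoR and p300 summits lay 77, 86 and 60 bp upstream of the MANE Select start, and no AML1 window overlapped them. The nearest AML1 summit to that of AML1-ETO was 870 bp away.

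Further into the gene, AML1-ETO and N-CoR summits fell on the same base, position 92949377, 3105 bp downstream of the MANE Select start. The annotation places it in an intron or a 5′ UTR, depending on the transcript, and a p300 summit was 154 bp away without overlap. In the distal intron (chr1:92941966-92942097), the 4 proteins again shared a site, with summits within 32 bp, 10434 bp downstream of the start by AML1-ETO and 9339 bp from H3K4me3. That AML1-ETO window held no match to any of the sequences searched.

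Within 50 kb the GFI1 locus gained 3 AML1, 2 AML1-ETO, 2 N-CoR and 2 p300 summits and no H3K4me3. Downstream of the gene, AML1, AML1-ETO and N-CoR windows overlapped at chr1:92925499-92925655, with a p300 summit 118 bp from that of AML1-ETO. AML1 and AML1-ETO overlapped at chr1:92927428-92927547, where the AML1-ETO window held a Runx match. On the other side, in an intron of EVI5, N-CoR and p300 summits lay 10 bp apart without AML1-ETO.

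IRF8, which directs precursors to monocytes and dendritic cells, had AML1-ETO without N-CoR or p300 in its 5 kb locus. The gene lies at chr16:85932722-85956212 on the + strand and had 1 AML1 and 3 AML1-ETO summits there. EGR2 shared that combination, which 8.62% of protein-coding genes showed. AML1-ETO without N-CoR was found at 18.6% of genes, and at least 3 AML1-ETO summits at 9.04%. No H3K4me3 summit lay closer than 99209 bp to the gene body. AML1-ETO without H3K4me3 was found at 5.20% of genes, and NFE2 was the only other of the 9 with that combination.

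None of the 3 AML1-ETO summits at IRF8 was at the annotated MANE Select start. One, at position 85947781, was 15013 bp downstream, 132 bp from an internal start, with an AML1 summit 79 bp away. The peak with the lowest number in the deposited list, at 85948974, was intronic and stood alone, and its window held a GAGGAA match. The last lay 4949 bp past the gene, just inside the 5 kb limit, and its window contained both TGTGGT and TGCGGT.

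The 5 kb limit fell between neighbouring sites at IRF8. A site of all 4 proteins (chr16:85962180-85962325), with summits within 46 bp, began 6018 bp past the gene by its N-CoR summit, just outside. A further one (chr16:85969794-85969944), with summits within 51 bp, lay 41 bp from an annotated start of LINC02132 by its AML1-ETO summit, and 37102 bp downstream of the IRF8 start. Both were in an intron of the non-coding gene ENSG00000285163, and positions do not tell which gene such a site serves. Upstream, AML1-ETO and N-CoR summits 13 bp apart lay 45302 bp before the start by AML1-ETO. An AML1-ETO summit 39228 bp and an N-CoR summit 10161 bp upstream stood alone.

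With 50 kb to either side, IRF8 had 3 AML1, 7 AML1-ETO, 4 N-CoR and 2 p300 summits and still no H3K4me3. These 7 AML1-ETO summits were the most of any of the 9 genes, and at least 5 within 50 kb were found at 12.8% of protein-coding genes. At the nearer site of all 4 proteins the AML1-ETO and AML1 windows held none of the sequences searched, whereas the N-CoR and p300 windows each held 1 ETS and 1 PU.1 match.

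**Figure D2:**
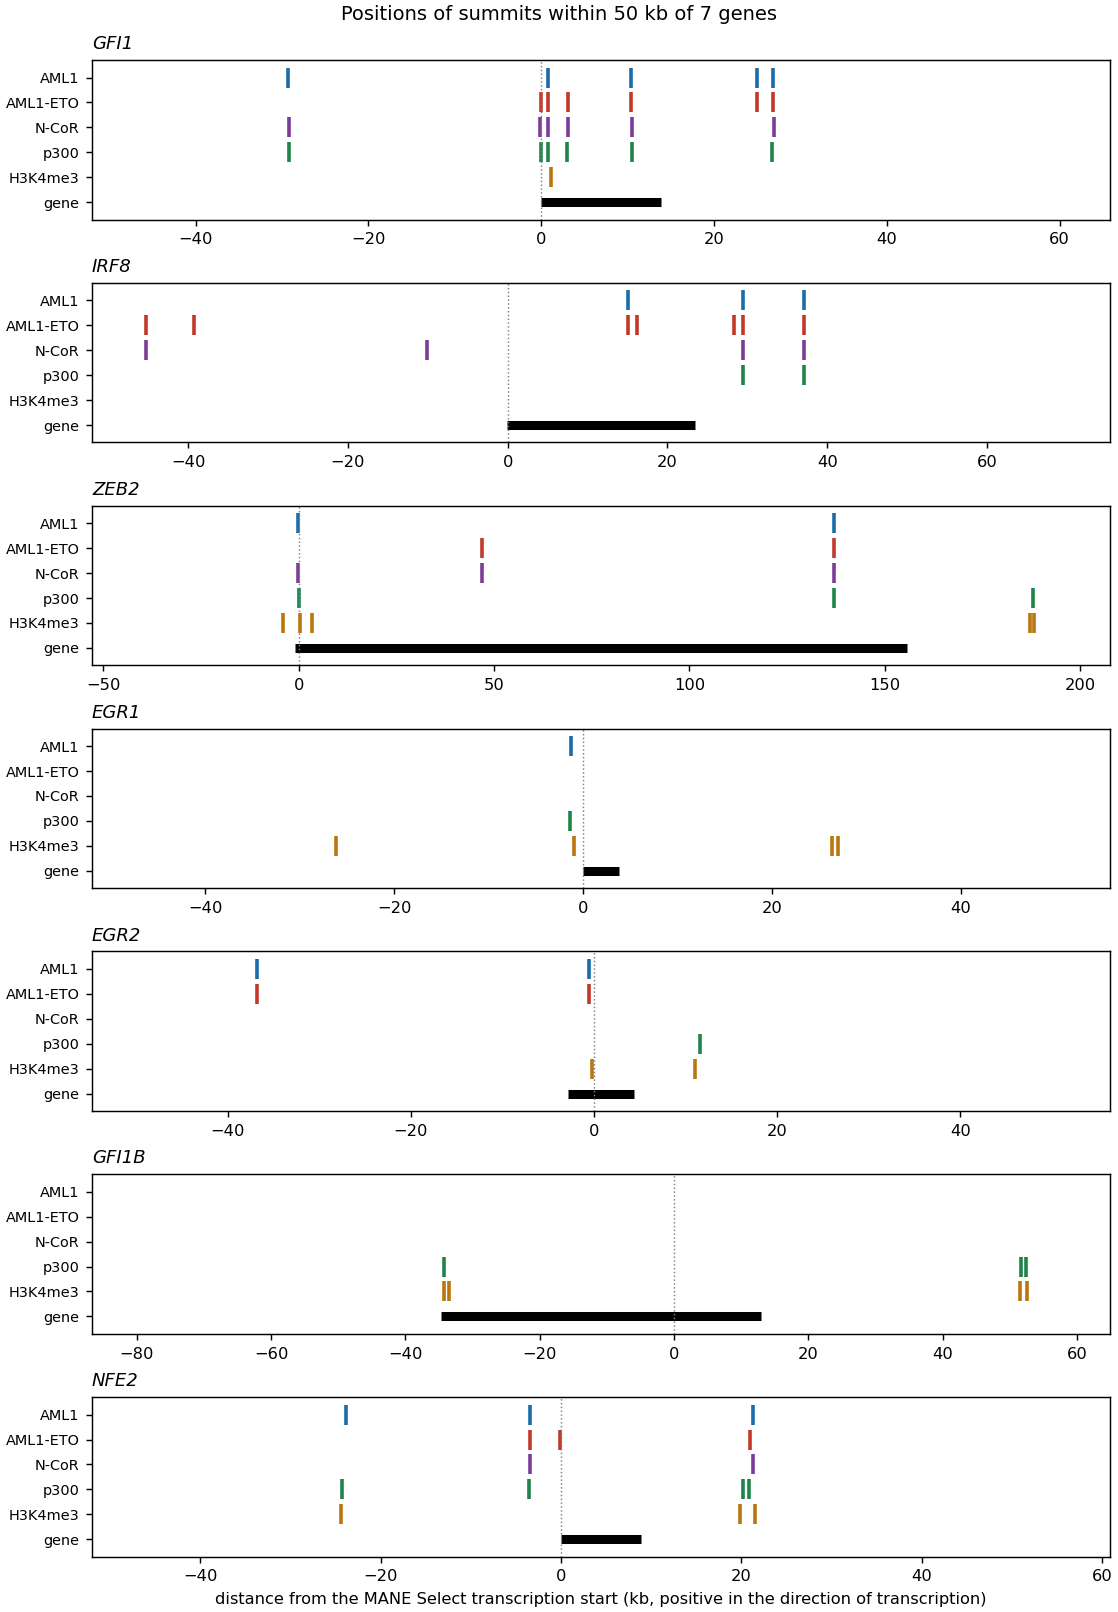
Positions of the summits of each list (coloured ticks, 1 row per list) within 50 kb of the 7 genes that had any, along the distance from the MANE Select start in kb, positive in the direction of transcription, with the gene body as a black bar. Summits of the 4 proteins stack at GFI1 (10.4 kb into the gene by AML1-ETO), past the end of IRF8 and at 137 kb in ZEB2, and those drawn for GFI1B stand away from its MANE Select start.

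ZEB2, a repressor with zinc fingers that acts in monocyte and dendritic cell development, carried all 5 lists, as did GFI1, and 14.5% of protein-coding genes did so. The gene spans chr2:145121931-145278624 on the - strand, and its 5 kb locus had 3 N-CoR, 3 H3K4me3, 2 AML1, 2 AML1-ETO and 2 p300 summits. The start and the introns differed in their occupancy. At the start, p300, N-CoR and AML1 summits lay 16, 74 and 114 bp upstream of the MANE Select start in overlapping windows (chr2:145277652-145277849), and an H3K4me3 summit lay 274 bp downstream. The start of the antisense gene ZEB2-AS1 was 9 bp from that H3K4me3 summit. No AML1-ETO summit lay within 46998 bp of the p300 summit at the start.

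Both AML1-ETO summits of ZEB2 were intronic and far from H3K4me3. The site of all 4 proteins (chr2:145140576-145140700) was 137037 bp downstream of the MANE Select start by AML1-ETO, with summits within 25 bp and the nearest H3K4me3 summit of the site 50224 bp away. Its AML1-ETO window held an ETS match and no Runx match. The other summit, 46982 bp downstream, had N-CoR 12 bp away without AML1 or p300, and its window held a Runx match.

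EGR1 and EGR2, zinc finger factors induced during macrophage differentiation, differed from each other. EGR1, at chr5:137801168-137804992 on the + strand, had 1 AML1, 1 p300 and 1 H3K4me3 summit within 5 kb, a combination without AML1-ETO and N-CoR that 3.62% of protein-coding genes showed. Its AML1 and p300 summits lay 1270 and 1337 bp upstream of the start, with windows that overlapped, and H3K4me3 lay 942 bp upstream, 141 bp from the start of the non-coding gene ENSG00000289267. The nearest AML1-ETO summit was 111996 bp and the nearest N-CoR summit 95537 bp from the gene body.

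EGR2, at chr10:64571756-64578927 on the - strand, had AML1 and AML1-ETO at the start itself. These summits were 2 bp apart, 509 and 507 bp upstream of the MANE Select start, and H3K4me3 lay 226 bp upstream of it. Both windows held TGCGGT and no TGTGGT. N-CoR was not found within 173848 bp of the gene, and the nearest p300 summit, 7196 bp away, lay at the start of ADO. A second pair of AML1 and AML1-ETO summits, 8 bp apart, lay 36815 bp upstream of the start by AML1-ETO, and each of its windows held 2 TGTGGT matches.

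IRF4, a relative of IRF8, and KLF4, a zinc finger factor of monocyte differentiation, had no summit of any list within 50 kb, and 12.9% of protein-coding genes had none. IRF4 (chr6:391739-411443, + strand) lay just beyond that limit from AML1, AML1-ETO and N-CoR, whose nearest summits were 50318, 50358 and 50338 bp from the gene body. Its nearest H3K4me3 summit was 99461 bp away. For KLF4 (chr9:110247133-110252763, - strand) the nearest AML1-ETO summit was 121762 bp and the nearest H3K4me3 summit 147797 bp away. A gene without a summit had no peak past the threshold of the authors, which is not the same as no binding.

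GFI1B and NFE2 had little in common. GFI1B, at chr9:135819387-135867074 on the + strand, had 1 p300 and 2 H3K4me3 summits and none of AML1, AML1-ETO or N-CoR. H3K4me3 and p300 without the other proteins were found at 10.6% of protein-coding genes. All of these summits lay at a far upstream start of GFI1B that neighbours TSC1, with p300 47 bp and H3K4me3 188 and 248 bp from a TSC1 start. They were 34188, 34329 and 33567 bp upstream of the MANE Select start of GFI1B, and within 5 kb of the MANE Select transcript there was no summit of any list. The nearest AML1-ETO summit was 121190 bp from the gene body.

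NFE2, a subunit of a factor of globin and platelet genes, had 1 AML1, 2 AML1-ETO, 1 N-CoR and 1 p300 summit and no H3K4me3. The gene lies at chr12:54685895-54694799 on the - strand. One AML1-ETO summit was 102 bp upstream of the start, without any of the other lists. COPZ1 starts 85 bp from this summit, so the summit lies at the starts of both genes. The nearest H3K4me3 summit was 10905 bp from the NFE2 body, at HNRNPA1.

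The other AML1-ETO summit of NFE2, 3461 bp upstream, bears number 54 in its list, the lowest of any AML1-ETO peak within 50 kb of the 9 genes. AML1, N-CoR and p300 summits lay 10, 55 and 65 bp from it (chr12:54698155-54698374), in an intron of COPZ1. The windows of N-CoR and p300 each overlapped that of AML1-ETO, but not each other, since their summits were 120 bp apart. The AML1-ETO window held TGCGGT once and no TGTGGT, ETS or PU.1 match.

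H3K4me3 marked an annotated start, with a summit within 1 kb, at 5 of the 9 genes, against 62.3% of protein-coding genes. They were GFI1, EGR1, EGR2, ZEB2 and GFI1B. Of these, EGR1, EGR2 and ZEB2 had a summit of the mark within 1 kb of the MANE Select start (60.3% of the protein-coding genes with such a transcript), whereas at GFI1 it lay 1111 bp away and at GFI1B it lay beside TSC1. Summits do not give the extent of the mark, so a start farther than 1 kb from a summit is not shown to lack it.

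The proteins were found at starts of partly different genes. AML1-ETO lay within 1 kb of an annotated start at GFI1, IRF8, EGR2 and NFE2 (23.3% of protein-coding genes), and AML1 at GFI1, IRF8, EGR2 and ZEB2 (18.6%). N-CoR did so at GFI1 and ZEB2 (13.3%), and p300 at GFI1, ZEB2 and GFI1B (37.0%). Counted from the MANE Select start alone, AML1-ETO remained at GFI1, EGR2 and NFE2 (18.8%), AML1 at GFI1, EGR2 and ZEB2 (15.1%), N-CoR at GFI1 and ZEB2 (10.3%) and p300 at GFI1 and ZEB2 (34.8%). GFI1 was thus the one gene of the 9 with all 4 proteins within 1 kb of its MANE Select start.

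Taking overlapping windows as a site, the 5 kb loci contained 16 sites of the 4 proteins, of which 5 were within 1 kb of an H3K4me3 summit. All 4 proteins were present at 4 sites, 2 at GFI1, 1 at ZEB2 and 1 at NFE2, and only the one near the GFI1 start was near H3K4me3. Such a site was found at 3 of the 9 genes within 5 kb and at 7.96% of protein-coding genes. Within 50 kb, IRF8 joined them, and the background was 18.3%. AML1-ETO with N-CoR but not AML1 occurred at 3 sites, 2 of GFI1 and 1 of ZEB2. No share over all sites of the genome stands beside this count or that of sites near H3K4me3, so both are a description only. AML1-ETO alone was found at 3 sites, 2 at IRF8 and 1 at NFE2, which is 25% of the 12 AML1-ETO summits (exact 95% interval 5.49 to 57.2%) against 38.3% of all AML1-ETO peaks.

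AML1-ETO summits of these genes overlapped N-CoR in 7 of 12 cases, 58.3% (exact Clopper-Pearson 95% interval 27.7 to 84.8%). Over all 18087 AML1-ETO peaks the share was 38.9% (38.2 to 39.6%), which lies inside the interval. The share that overlapped AML1 was 50.0% (21.1 to 78.9%) at the genes and 46.2% over all peaks, and that for p300 was 41.7% (15.2 to 72.3%) and 21.8%. Overlap with all 3 was seen for 4 of 12 summits, 33.3% (9.92 to 65.1%), and for 11.8% of all peaks. An H3K4me3 summit lay within 1 kb of 2 of the 12, at GFI1 and EGR2, and of 27.4% of all AML1-ETO peaks. These intervals of the 12 summits hold the value over all peaks, and they cover counting error over peaks only. Among the 20 AML1-ETO summits within 50 kb, 6 overlapped all 3, 30.0% (11.9 to 54.3%). That interval starts just above the 11.8% of all peaks, but the 6 summits come from 4 genes, 2 each at GFI1 and IRF8, and are not independent, so no difference is read from it.

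The shares rested on few genes. Without GFI1 the N-CoR share was 37.5% and the p300 share 25%, and without IRF8 they were 77.8% and 55.6%. GFI1 gave 4 and IRF8 gave 3 of the 12 summits, with N-CoR at each of the former and at none of the latter.

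**Figure D3:**
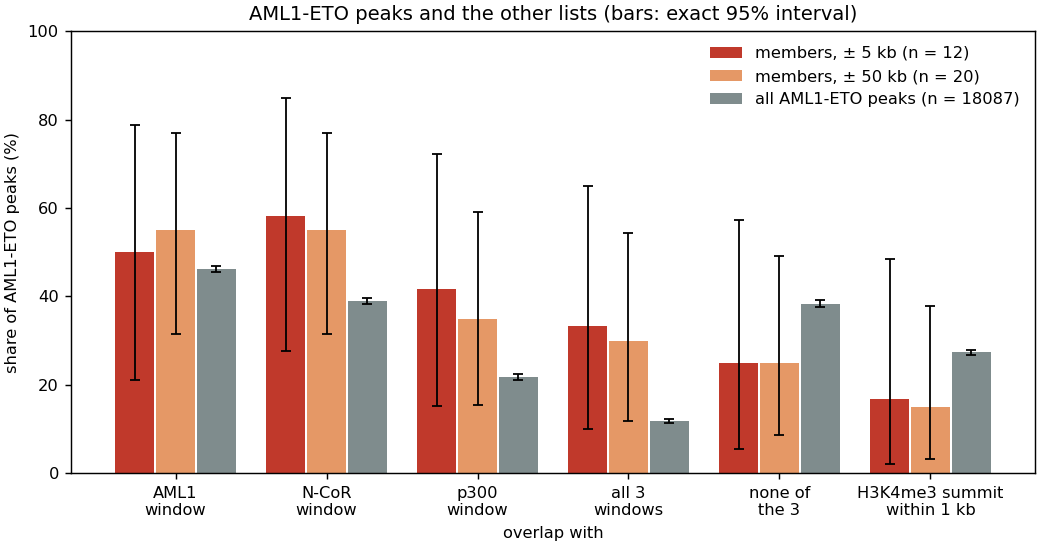
Share of AML1-ETO peaks (%, vertical axis) whose window overlaps AML1, N-CoR, p300, all 3 or none of them, or that have an H3K4me3 summit within 1 kb, for the 12 peaks within 5 kb and the 20 within 50 kb of the 9 genes and for all 18087 peaks, with exact 95% intervals as error bars. Every interval of the 12 peaks holds the share over all peaks, for example 27.7 to 84.8% against 38.9% for N-CoR, and of the 20 peaks the interval for all 3 starts at 11.9% beside 11.8%, with summits of the same gene not independent.

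TGTGGT, the Runx sequence, was found in 4 of the 12 AML1-ETO windows, 33.3% (9.92 to 65.1%), and in 31.3% of all AML1-ETO windows. Those printed above are the windows near the GFI1 start, in the nearer ZEB2 intron and at the edge of the IRF8 locus, and of these only the first had all 4 proteins. With TGCGGT added, 6 of 12 windows (50.0%) held either form, against 39.3% of all. AGGAAG was found in 2 of the 12 (16.7%, 2.09 to 48.4%) and in 37.5% of all. With 100 bp to either side AGGAAG was found in 7 of the 12 (58.3%) and in 53.0% of all, so that its order against all windows turned with the width. GAGGAA was found in 3 of the 12 (25%) and in 26.0% of all. A match is a description of the letters in a window and not evidence of contact.

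The 8 AML1 windows held TGTGGT once, 12.5% (0.316 to 52.7%), against 40.6% of all AML1 windows, and either Runx form 3 times, 37.5% (8.52 to 75.5%), against 51.8%. They held AGGAAG in 3 cases (37.5%, against 37.7%) and GAGGAA in 1 (12.5%, against 25.6%). The 8 N-CoR windows held TGTGGT in 2 cases (25%, against 19.5% of all N-CoR windows), AGGAAG in 2 (25%, against 46.2%) and GAGGAA in 1 (12.5%, against 30.8%). Among the 9 p300 windows, 4 held AGGAAG (44.4%, 13.7 to 78.8%), against 25.1% of all p300 windows, 1 each at GFI1, ZEB2, GFI1B and NFE2. TGTGGT was found in 1 p300 window (11.1%, against 6.66%) and GAGGAA in 1 (11.1%, against 17.7%).

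Set side by side, the granulocyte gene GFI1 had all 5 lists, the 6 monocyte genes had AML1-ETO at 3, N-CoR at 1 and H3K4me3 at 3, and the 2 erythroid genes had AML1-ETO and N-CoR at 1 and H3K4me3 at the other. That other gene is GFI1B, where H3K4me3 lay beside TSC1. Within 1 kb of the MANE Select start, H3K4me3 was found at 3 monocyte genes and at no granulocyte or erythroid gene. Per 100 kb of locus, AML1-ETO summits numbered 16.7, 2.17 and 2.61 in the 3 groups. The monocyte value includes the 167 kb locus of ZEB2, with 1.20 per 100 kb. It was 8.96 at IRF8, 5.82 at EGR2 and 0 at IRF4, KLF4 and EGR1. A group of 1 or 2 genes gives no spread, and no order of the lineages is read from these values.

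A wider list of 20 regulators of the same lineages was counted in the same way, with 4 further granulocyte genes, 7 monocyte genes and 9 erythroid genes. AML1-ETO was found at 12 of them (60.0%) and H3K4me3 at 19 (95%), against 41.3% and 68.0% of protein-coding genes. Among protein-coding genes with H3K4me3 at a start, the share with AML1-ETO was 53.5%, nearer to that of the list. With the 9 genes included, AML1-ETO was present at 3 of 5 granulocyte, 8 of 13 monocyte and 6 of 11 erythroid genes, and H3K4me3 at 5, 10 and 9 of them. N-CoR was present at 4, 5 and 5 (26.7% of protein-coding genes), and p300 at 4, 7 and 8 (45.5%). Of the protein-coding genes with H3K4me3 at a start, 36.0% had N-CoR and 66.2% had p300. No test was made between the groups.

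In the granulocyte group, RARA, a retinoic acid receptor, had 8 AML1-ETO and 4 N-CoR summits, and CEBPE, a factor of late granulocyte maturation, had 2 and 2 without p300. CEBPA and CEBPB, factors of the same family as CEBPE, had no AML1-ETO summit within 5 kb. There CEBPA had 2 p300 and 3 H3K4me3 summits, and CEBPB had 1 N-CoR, 1 p300 and 2 H3K4me3 summits. Within 50 kb CEBPA had 6 AML1-ETO, 4 N-CoR and 3 AML1 summits, while CEBPB still had none of AML1-ETO.

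In the monocyte group, IRF5 had 4 summits of each of the 4 proteins and SPI1, which encodes PU.1, had 2 AML1 and 3 each of AML1-ETO, N-CoR and p300. MAF and TCF4 had a single H3K4me3 summit and no protein within 5 kb, and no protein within 50 kb.

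In the erythroid and megakaryocytic group, FLI1, an ETS factor of megakaryocytes, had 9 AML1-ETO and 7 N-CoR summits, and LYL1, a relative of TAL1, had 5 of each. ZFPM1, a cofactor of GATA1, had 2 H3K4me3 summits and no protein within 5 kb, MAFK had 1 and no protein, and SOX6 had 2 with 1 AML1 and 1 p300. Within 50 kb ZFPM1 had 2 AML1-ETO, 2 AML1, 2 p300 and 1 N-CoR summits, and MAFK had 2 AML1-ETO and 1 p300. GATA1 had no summit within 5 kb, and its nearest H3K4me3 summit was 6877 bp away. Within 50 kb it had 5 H3K4me3, 1 AML1-ETO and 1 p300 summit. All 4 proteins were present somewhere in the 5 kb locus at 2 of 5 granulocyte, 4 of 13 monocyte and 5 of 11 erythroid genes, and at 15.4% of protein-coding genes.

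**Figure D4:**
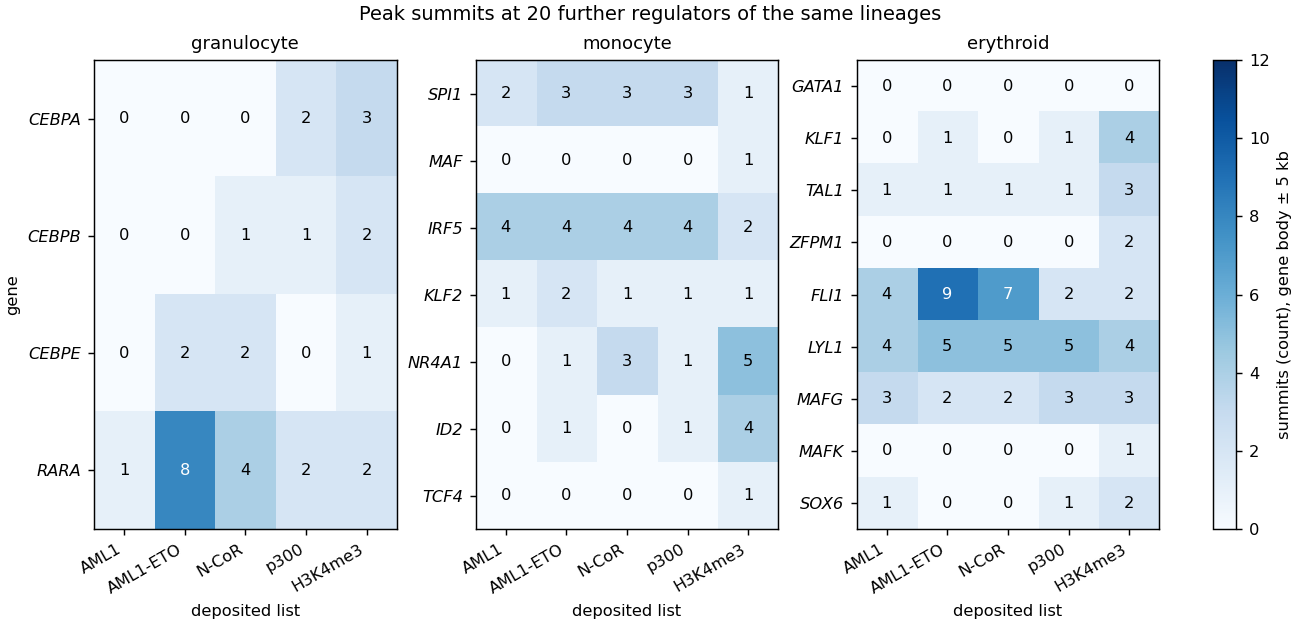
Number of peak summits within 5 kb of the gene body (cell values and colour) for the 20 further regulators (rows), grouped by lineage, in each of the 5 lists (columns). RARA (8 AML1-ETO summits), IRF5 (4) and FLI1 (9) have the most AML1-ETO summits of their groups, and GATA1 is empty.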

How the data were processed

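The peak lists of H3K4me3 and of the 4 proteins from Kasumi-1 cells were used. H3K27me3 and input were not analysed here. Per the labels, reads were processed with CASAVA 1.6, Bowtie 0.12.8 and MACS2 2.0.10.20131216 on GRCh37 (hg19). The authors allowed 2 mismatches, pooled 2 biological replicates per antibody and called peaks at a p threshold of 1e-20. The deposited values are positions only, windows of 100 bp about a summit, with no score, height, count or peak width. The depth behind a peak and the extent of a peak about its summit are thus not known from the files. Peak names are numbered in file order, whose meaning is not given in the sources used here, and the names in the N-CoR, p300 and H3K4me3 lists begin with those of other proteins.

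Summits (window start counted from 0, plus 50) were counted within 5 kb and 50 kb of gene bodies of GENCODE release 44 lifted to GRCh37, and windows sharing at least 1 bp overlapped. Downstream is in the direction of transcription. Sequences were read from GRCh37, and windows touching an annotated exon are not printed. A gene of the wider list and the sequence of a promoter window are not reported here, and the counts of the wider list leave that gene out. The tools were samtools 1.23.1 and, under Python 3.11.15, pysam 0.24.0 for sequences, SciPy 1.17.1 for exact intervals, matplotlib 3.10.9 for plots and numpy 2.4.6. Counting was tested on simulated data, where 200 genes with planted summits among 2000, and 948 overlaps among 3000 peaks, were recovered (100%).

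The genes and lists were chosen with earlier results of these data known. All 9 genes are named, with the lowest-numbered AML1-ETO peak, the sites shared by AML1-ETO, N-CoR and p300 and the summits nearest a start of each, and in the wider list the 2 genes with most AML1-ETO summits per group and those with none. Other sites within 50 kb, and single p300 or N-CoR summits described, were chosen after their positions were seen. Other distances, window widths, background gene sets, transcript starts, the first 50% of each list and omitted genes were tried. The MANE Select starts and spans and the TGCGGT form were chosen after seeing the data.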

Additional observations from a re-analysis of the deposited data

How the results depend on the processing

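Of the values recomputed under each alternative, 113 stayed within the limits set for them and 16 did not. These limits were wide where a share rested on few summits or windows. The N-CoR share of AML1-ETO summits (58.3%) counted as within them at 37.5% without GFI1 and at 77.8% without IRF8. The tally of 113 and 16 is thus not a measure of how stable the results are. Widening the loci from 5 to 20 kb gave 13 AML1, 13 N-CoR and 15 p300 summits (8, 8 and 9 at 5 kb), and at 50 kb there were 20 AML1-ETO, 20 p300, 19 H3K4me3, 16 AML1 and 15 N-CoR summits (12, 9, 8, 8 and 8 at 5 kb). Genes with p300 fell from 5 (45.5% of all genes) to 3 with the gene body alone (29.8%) and to 3 with 1 kb (42.0%). The share of the 9 genes was thus above that of all genes at 5 kb (55.6%) and below it at 1 kb (33.3%). The first 50% of each list in deposited order left 5 AML1 and 5 H3K4me3 summits. H3K4me3 marked a start at 3 genes, not 5, when the start of the longest transcript or the MANE Select start was used, which leaves fewer starts per gene. The genes differed, being EGR1, ZEB2 and GFI1B by the longest transcript and EGR1, EGR2 and ZEB2 by the MANE Select start. The ETS share of AML1-ETO windows was 58.3% with 100 bp to either side (53.0% of all) and 16.7% with 50 bp (37.5% of all), and the Runx share of N-CoR windows was 0% with 25 bp (25% with 50 bp). These follow from the longer and shorter windows. Of the shares over all genes, 35 moved as well. No paired analysis was possible because each antibody has 1 list from pooled replicates, and no replicate could be left out. A stricter p threshold could not be applied, since the lists hold no score, and the depth behind a missing peak is unknown.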
